A study of Homo sapiens with 16 samples.

Results

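The NRF2 target genes described here are 9 genes picked by name: NQO1, AKR1C1, AKR1C2, AKR1C3, TXNRD1, GCLM, SRXN1, HMOX1 and OSGIN1. All 9 were found among the 23709 genes of the deposited tables. The rule takes them by name and uses no measured value, but the list was drawn up with earlier results of these data known. They were followed through 16 RNA sequencing libraries of polyA RNA, with 1 library in each of 16 groups. The cells were H1299, a line from a non-small cell lung carcinoma, and HBE, labelled as lung epithelial cells, all at passage 15 to 18. H1299 cells carried a plasmid for Flag-tagged FLII (H1299 FLII overexpression) or the empty plasmid (H1299 vector), delivered with a lipid reagent. HBE cells carried a stable lentiviral short hairpin RNA against FLII (HBE FLII knockdown) or the control labelled NC (HBE NC). FLII is an actin-binding protein of the gelsolin family. Each of these 4 kinds of cells gave mRNA, RNA pelleted through sucrose with ribosome-nascent chain complexes after cycloheximide treatment (RNC), cytosol RNA and nuclear RNA. Whether the hairpin line is 1 clone and how the NC cells were made is not given in the labels, and nothing in them says that any of the libraries came from separate cultures.

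NRF2, the product of NFE2L2, is a transcription factor that KEAP1 holds in the cytoplasm and hands to the CUL3 ubiquitin ligase for degradation. Electrophiles and oxidants modify KEAP1, NRF2 then accumulates, pairs with a small MAF protein and binds antioxidant response elements, from which BACH1 can displace it. In airway epithelium and in many lung carcinomas its targets are known as a defence against smoke, peroxides and drugs, and the AKR1C genes and NQO1 are much used as readouts of it in human cells.

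RefSeq promoter windows (GRCh38.p14, 250 bases before to 50 after a start) were at hand for 8 of the 9 members, in 10 windows; HMOX1 had none. They were searched on both strands for TGACNNNGC, the core letters of the antioxidant response element. Sequence outside the windows was not searched, so a gene without a match may still have the element further away. The motif stood in 3 of the 10 windows, which belong to GCLM and TXNRD1, against 13.3% of all 35116 windows in the same table. The windows of these genes are shown from 150 bases before the start, on the strand of the gene and from 5′ to 3′, with the motif or its reverse complement in capitals; a match is a string of letters and not a shown binding site.
GCLM, chr1:93909410-93909580, minus strand: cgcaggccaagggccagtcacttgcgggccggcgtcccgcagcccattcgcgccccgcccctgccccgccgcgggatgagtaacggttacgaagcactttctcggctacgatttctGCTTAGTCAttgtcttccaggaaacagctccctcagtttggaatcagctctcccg
TXNRD1 start at the upstream window, chr12:104215629-104215799, plus strand: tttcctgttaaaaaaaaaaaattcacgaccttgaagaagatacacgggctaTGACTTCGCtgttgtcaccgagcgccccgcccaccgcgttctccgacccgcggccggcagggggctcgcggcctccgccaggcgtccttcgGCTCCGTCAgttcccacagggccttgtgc
TXNRD1 start at the downstream window, chr12:104286882-104287052, plus strand: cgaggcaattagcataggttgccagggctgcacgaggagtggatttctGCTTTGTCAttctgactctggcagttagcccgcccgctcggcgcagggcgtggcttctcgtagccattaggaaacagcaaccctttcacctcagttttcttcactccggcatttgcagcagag

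The AKR1C1 and AKR1C2 windows of the same table are shown because both genes differed widely between the lines and are near copies of each other. Of 292 aligned bases, 288 were the same (98.6%), with an unbroken shared run of 245 bases; capitals mark bases of the stretch shown that are not matched in the alignment.
AKR1C1, chr10:4963265-4963435, plus strand: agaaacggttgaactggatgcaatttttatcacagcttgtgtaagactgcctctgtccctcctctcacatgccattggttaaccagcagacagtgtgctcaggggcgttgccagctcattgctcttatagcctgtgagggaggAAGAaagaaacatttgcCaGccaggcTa
AKR1C2, chr10:5003837-5004007, minus strand: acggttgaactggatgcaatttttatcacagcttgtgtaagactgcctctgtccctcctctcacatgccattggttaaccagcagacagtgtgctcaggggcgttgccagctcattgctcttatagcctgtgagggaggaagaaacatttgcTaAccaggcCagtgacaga
The likeness goes on into the transcripts: of the distinct 50-base stretches in annotated AKR1C2 transcripts, 43.2% also occur in AKR1C1, and 26.6% of those of AKR1C1 occur in AKR1C2. For AKR1C3 the shares were 6.08% with AKR1C1 and 7.61% with AKR1C2. How the authors assigned reads that match several genes is not given in the sources used here, so the split of reads among these 3 genes is uncertain, most of all between AKR1C1 and AKR1C2, and their summed reads are given as well.

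Levels are given as RPKM, reads scaled to transcript length and library total. The libraries held 5943676 to 8344359 gene reads for mRNA, 26711771 to 38514467 for RNC, 5914489 to 9259569 for cytosol and 6295282 to 8201848 for nuclear RNA. FLII itself, outside RNC, went with the labels: its reads were 22740, 5713 and 7074 in mRNA, cytosol and nuclear RNA of H1299 FLII overexpression, against 3705, 2829 and 1855 in H1299 vector. In HBE they were 450, 236 and 402 in FLII knockdown, against 2716, 1614 and 2769 in NC. In RNC, FLII went against the labels in H1299, with 941 reads in the library labelled FLII overexpression and 14625 in the library labelled vector. The HBE RNC libraries had 3494 FLII reads under the knockdown label and 5449 under NC, or 30.0 and 36.5 RPKM. In HBE mRNA FLII had 13.75 and 75.3 RPKM, so its difference was much narrower in RNC. Genes typical of the lines also crossed in RNC: KRT17, a basal keratin, had 38 to 448 reads in H1299 FLII overexpression libraries of the other kinds and 153930 in RNC, and under the HBE FLII knockdown label it had 48 in RNC, against 32693 to 43609 in the other HBE knockdown libraries. All RNC results are therefore given by library label, apart from the rest.

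**Figure D1:**
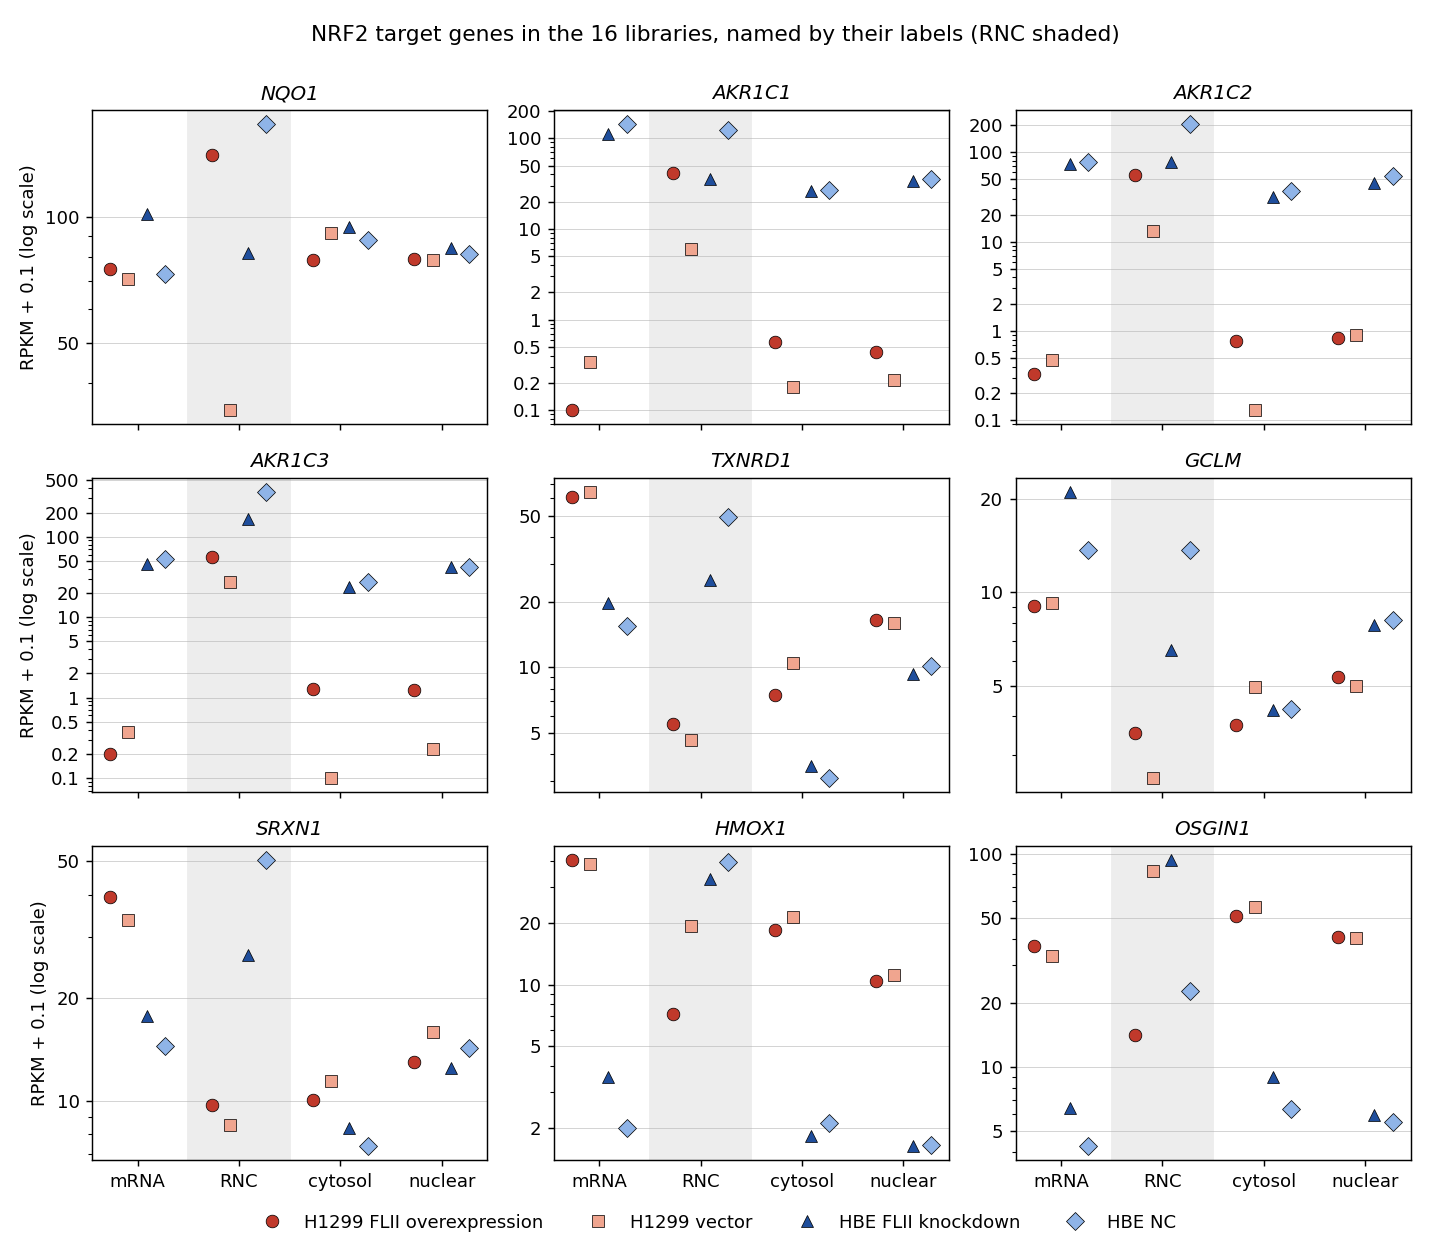
RPKM with 0.1 added (log scale) of each of the 9 genes in the 16 libraries, each point 1 library, by RNA kind and by label. The AKR1C genes are low in all 6 H1299 libraries outside the shaded RNC column, where summed AKR1C reads were 2 to 29, and HMOX1 and OSGIN1 are low in the 6 HBE libraries outside it.

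The widest difference between the lines was in the aldo-keto reductases. AKR1C1, AKR1C2 and AKR1C3, enzymes that reduce steroids, prostaglandins and reactive carbonyls with NADPH, were close to absent from H1299 and abundant in HBE. HMOX1 and OSGIN1 went the other way, high in H1299 and low in HBE. NQO1, GCLM, SRXN1 and TXNRD1 overlapped between the lines. In bulk RNA, fewer cells with a transcript and less of it per cell cannot be told apart.

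AKR1C1 had 0, 4 and 3 reads in mRNA, cytosol and nuclear RNA of H1299 FLII overexpression and 2, 1 and 1 in H1299 vector. The HBE libraries held 1157, 237 and 377 AKR1C1 reads in FLII knockdown and 1629, 220 and 362 in NC. The lowest HBE library thus had 220 reads where the highest H1299 library had 4. In RPKM, AKR1C1 reached 112 and 143 in the mRNA of HBE knockdown and NC cells, among the highest mRNA levels of any member.

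AKR1C2 had 7, 15 and 17 reads in H1299 FLII overexpression and 8, 1 and 18 in H1299 vector, against 1994, 757 and 1356 in HBE FLII knockdown and 2346, 790 and 1433 in HBE NC. AKR1C3, which makes testosterone and prostaglandin F, had 1, 9 and 9 reads in H1299 FLII overexpression and 2, 0 and 1 in H1299 vector, against 426, 192 and 418 in HBE FLII knockdown and 531, 196 and 379 in HBE NC. Neither gene overlapped between the lines in any of these 12 libraries. Summed, the 3 genes gave 2 to 29 reads per H1299 library, against 1186 to 4506 per HBE library.

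Folds were computed from read counts after TMM scaling, with 0.5 reads added, each with a 95% interval for counting error alone. The call of a higher or lower gene needed a fold of 2 or more (a log2 fold of 1) and an interval off 1. Genes with under 20 reads in a pair were left out of it. The summed AKR1C reads of H1299 vector over HBE NC gave a log2 fold of -8.29 in mRNA (95% interval -9.29 to -7.54) and -6.75 in nuclear RNA (-7.50 to -6.16). In cytosol, where H1299 vector held 2 reads, the interval of the ratio ran over log2 values of -13.40 to -8.49. H1299 FLII overexpression over HBE FLII knockdown gave -8.96 in mRNA (-10.27 to -8.08), -5.63 in cytosol (-6.25 to -5.12) and -6.08 in nuclear RNA (-6.69 to -5.58). For the genes at 0 reads, AKR1C1 was at least 459-fold lower in H1299 FLII overexpression mRNA than in HBE FLII knockdown mRNA, and AKR1C3 was at least 141-fold lower in H1299 vector cytosol than in HBE NC cytosol, each against a floor of 3 reads in the library at 0.

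HMOX1, which breaks haem down to biliverdin, iron and carbon monoxide, had 40.4, 18.4 and 10.3 RPKM in mRNA, cytosol and nuclear RNA of H1299 FLII overexpression and 38.6, 21.3 and 11.1 in H1299 vector. Its levels in HBE were 3.43, 1.72 and 1.53 RPKM in FLII knockdown and 1.90, 2.02 and 1.54 in NC. The HBE values rest on 18 to 41 reads a library. HMOX1 was called higher in H1299 in all 6 pairs of libraries, with log2 folds between 2.47 (1.80 to 3.27), for nuclear RNA of FLII overexpression over knockdown, and 4.05 (3.49 to 4.73), for mRNA of vector over NC.

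OSGIN1, an oxidative stress response gene that restrains growth, had 37.0, 51.0 and 40.7 RPKM in H1299 FLII overexpression and 33.0, 56.4 and 40.1 in H1299 vector. In HBE it had 6.32, 8.85 and 5.84 RPKM in FLII knockdown and 4.17, 6.28 and 5.41 in NC. Its folds were the most even of the members that differed, from 2.20 (1.91 to 2.50) in cytosol of FLII overexpression over knockdown up to 2.71 (2.34 to 3.12) in mRNA of vector over NC.

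Across the 6 line pairs outside RNC, 2 of the 9 members were called higher in H1299 every time (HMOX1 and OSGIN1) and 3 lower every time (the AKR1C genes). With 0 to 18 reads in each H1299 library outside RNC, the AKR1C genes passed the read minimum of these pairs only through their HBE reads. Of the 11434 genes kept in all 6 pairs, 10.7% were called higher and 12.1% lower every time. By RPKM, the same 2 members lay above and the same 3 below without overlap, and 4 overlapped, where 15.7% of 16068 genes lay above and 10.8% below. In the single pairs, calls in either direction covered 43.6%, 48.9% and 45.3% of all genes for mRNA, cytosol and nuclear RNA of vector over NC, where 6, 6 and 5 members were called. They covered 42.1%, 45.0% and 46.0% for FLII overexpression over knockdown, where 8, 5 and 5 members were called. Calls between these lines were thus common among all genes.

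TXNRD1, the cytosolic reductase that returns electrons from NADPH to thioredoxin, stood between. Its mRNA level was 60.96 RPKM in H1299 FLII overexpression and 64.0 in H1299 vector, against 19.7 in HBE FLII knockdown and 15.4 in HBE NC. It was called higher in H1299 in 3 of the 6 pairs: mRNA of vector over NC at 1.79 (1.65 to 1.94), mRNA of FLII overexpression over knockdown at 1.53 (1.40 to 1.66), and cytosol of vector over NC at 1.33 (0.98 to 1.70). In nuclear RNA the folds were 0.42 and 0.57 and were not called.

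SRXN1, which repairs overoxidised peroxiredoxins, had 39.3 and 33.5 RPKM in H1299 mRNA (FLII overexpression and vector) and 17.6 and 14.3 in HBE mRNA (knockdown and NC). Of its 6 pairs only the mRNA of FLII overexpression over knockdown was called, at 1.06 (0.88 to 1.24); mRNA of vector over NC lay just short at 0.96 (0.76 to 1.16). GCLM, the modifier subunit of the enzyme that limits glutathione synthesis, had 8.93 and 9.14 RPKM in H1299 mRNA and 20.9 and 13.6 in HBE mRNA. GCLM was called in the same single pair and in the opposite direction, at -1.33 (-1.56 to -1.10). For SRXN1, as for TXNRD1 and HMOX1, the difference between the lines was wider in mRNA than in the separated cytosol and nuclear RNA in both kinds of pair. For GCLM this held in FLII overexpression over knockdown, while vector over NC gave -0.84 in mRNA and -0.96 in nuclear RNA.

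NQO1, a quinone reductase and the most evenly expressed member, was not called in any of the 6 line pairs. It had 71.0 to 91.1 RPKM over the 6 H1299 libraries (median 78.8) and 73.0 to 102 over the 6 HBE libraries (median 85.9). Its folds ran from -0.58 (-0.69 to -0.48) to -0.29 (-0.40 to -0.18), so with TMM every interval lay below 0 while no fold reached the threshold. By RPKM, H1299 vector and HBE NC had 71.0 and 73.0 in mRNA, 91.1 and 87.9 in cytosol and 78.7 and 81.4 in nuclear RNA. H1299 FLII overexpression was below HBE FLII knockdown in each kind: 74.9 and 102, 78.9 and 94.1, and 79.1 and 84.0. The direction in the control pairs thus depends on the scaling.

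**Figure D2:**
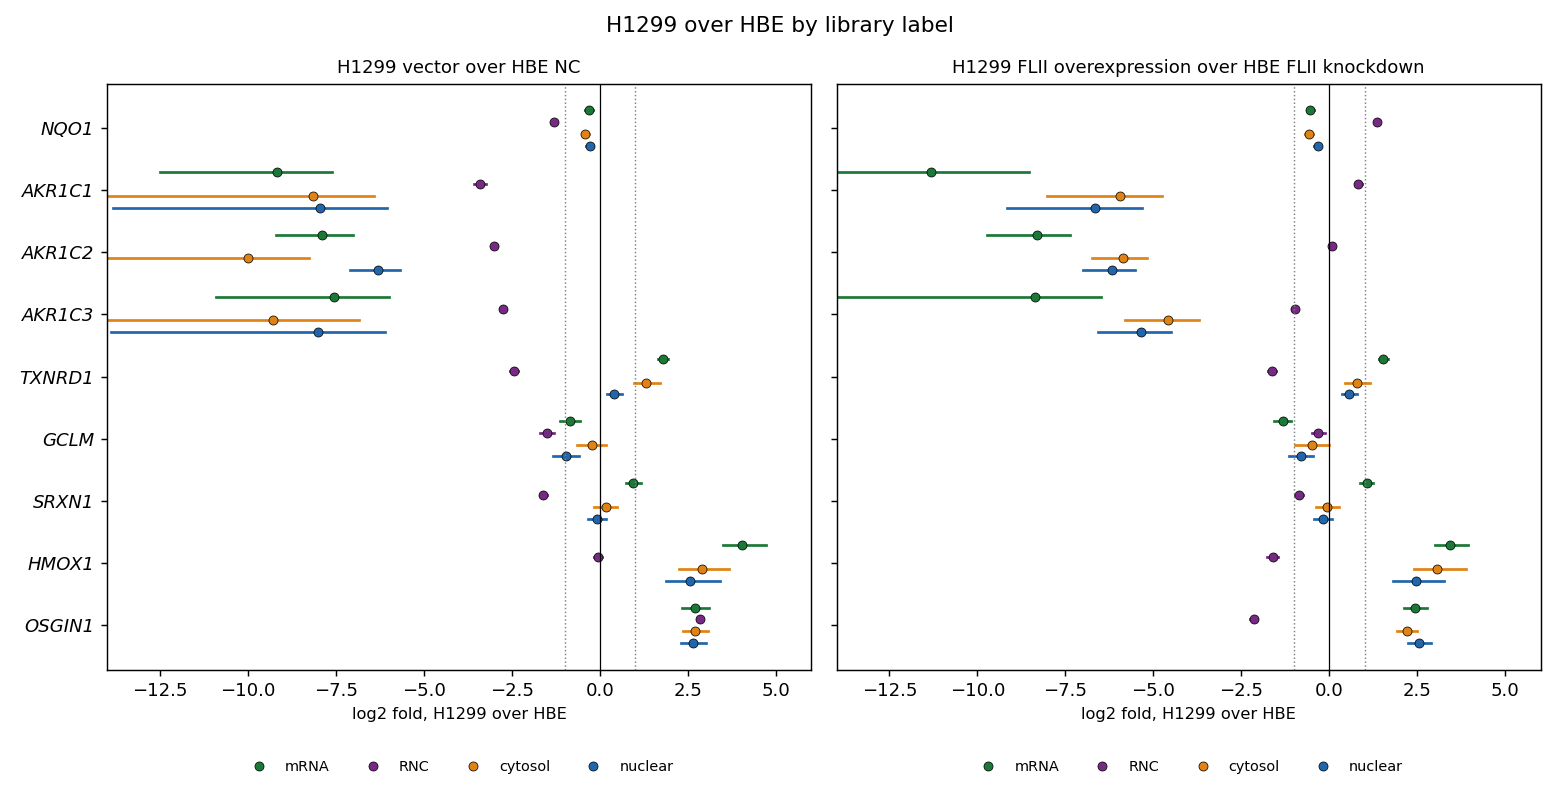
Log2 fold of each gene, H1299 over HBE, for the control pair (left) and for the FLII overexpression and FLII knockdown pair (right); lines are 95% counting intervals, drawn only as far as -14, dotted lines mark a fold of 2, and AKR1C points rest on the 0.5 added reads where a library has 0. HMOX1 and OSGIN1 lie right and the AKR1C genes left in mRNA, cytosol and nuclear RNA, with HMOX1 between 2.47 and 4.05, and several RNC points lie apart from these.

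The line markers moved with these differences. The 8 epithelial marker genes summed to 1330 to 2370 CPM, reads scaled to the library total alone, over the 6 H1299 libraries, with 6 to 8 of them detected, and to 6700 to 11600 over the 6 HBE libraries, with all 8 detected; at 0 were TP63 in both H1299 nuclear libraries and CDH1 in the vector one. The 4 mesenchymal markers summed to 1430 to 6410 CPM in H1299 and to 5.92 to 850 in HBE, where ZEB1 was at 0 in 4 of the 6 libraries. Their part in the members' differences was not tested.

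The upstream regulators differed less between the lines than the AKR1C genes, HMOX1 and OSGIN1. NFE2L2 had 21.7 and 21.4 RPKM in H1299 mRNA (FLII overexpression and vector) and 24.2 and 23.6 in HBE mRNA (knockdown and NC). KEAP1 had 91.3 and 87.2 RPKM in H1299 mRNA and 58.6 and 44.7 in HBE mRNA. Neither was called in any of the 6 line pairs, with log2 folds of -0.96 to 0.50 for NFE2L2 and -0.60 to 0.70 for KEAP1; RNA does not show the protein level, at which KEAP1 controls NRF2. CUL3, MAFF and MAFG were not called in any pair either. BACH1, the repressor that competes at antioxidant response elements and is known to hold down HMOX1, was called higher in H1299 in 3 of the 6 pairs, with folds of 0.00 to 1.49. MAFK, a small MAF partner, was called lower in H1299 in all 6 (-2.28 to -2.02), and SQSTM1, the autophagy adaptor that binds KEAP1, was called higher in all 6 (1.31 to 2.14).

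A list of 60 other genes of the pathway leaned toward HBE. The list was drawn up with earlier results of these data known, so its lean is a description and no independent support. Of the 52 that could be compared in all 6 pairs, 3 were called higher in H1299 every time and 19 lower every time, beside 10.7% and 12.1% of all genes. The median log2 fold of the list was between -0.82 and -0.52 in these pairs, beside -0.03 to 0.13 for all genes. Among those lower in H1299, ALDH3A1, an aldehyde dehydrogenase, had 0 to 3 reads in the 6 H1299 libraries and 80 to 321 in the 6 HBE libraries. GPX2, an epithelial glutathione peroxidase, had 0 to 3 and 96 to 329, and CYP4F11, a fatty acid hydroxylase, had 0 to 5 and 43 to 163. ALDH3A1, GPX2 and CYP4F11 thus passed the read minimum only through their HBE reads. AKR1B1, the aldose reductase, was lower by log2 folds of -3.06 to -2.72, and the glutathione transferases GSTP1 and GSTM4 by -3.00 to -2.52 and -3.56 to -2.94. Both GSTM4 and the AKR1C genes belong to families with close copies. The 3 called higher were SQSTM1, BLVRB, which reduces biliverdin (1.77 to 2.69), and the glutathione transferase GSTM3 (2.06 to 4.11). GSTA4, GSR and UGDH were called higher in 5 of the 6 pairs. By function, and among those comparable in all 6 pairs, 8 of 14 detoxification and efflux genes, 5 of 10 glutathione genes and 3 of 6 NADPH genes were called lower in all 6. The same held for 1 of 4 thioredoxin and peroxide genes, 1 of 6 iron and haem genes and 1 of 12 regulators.

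**Figure D3:**
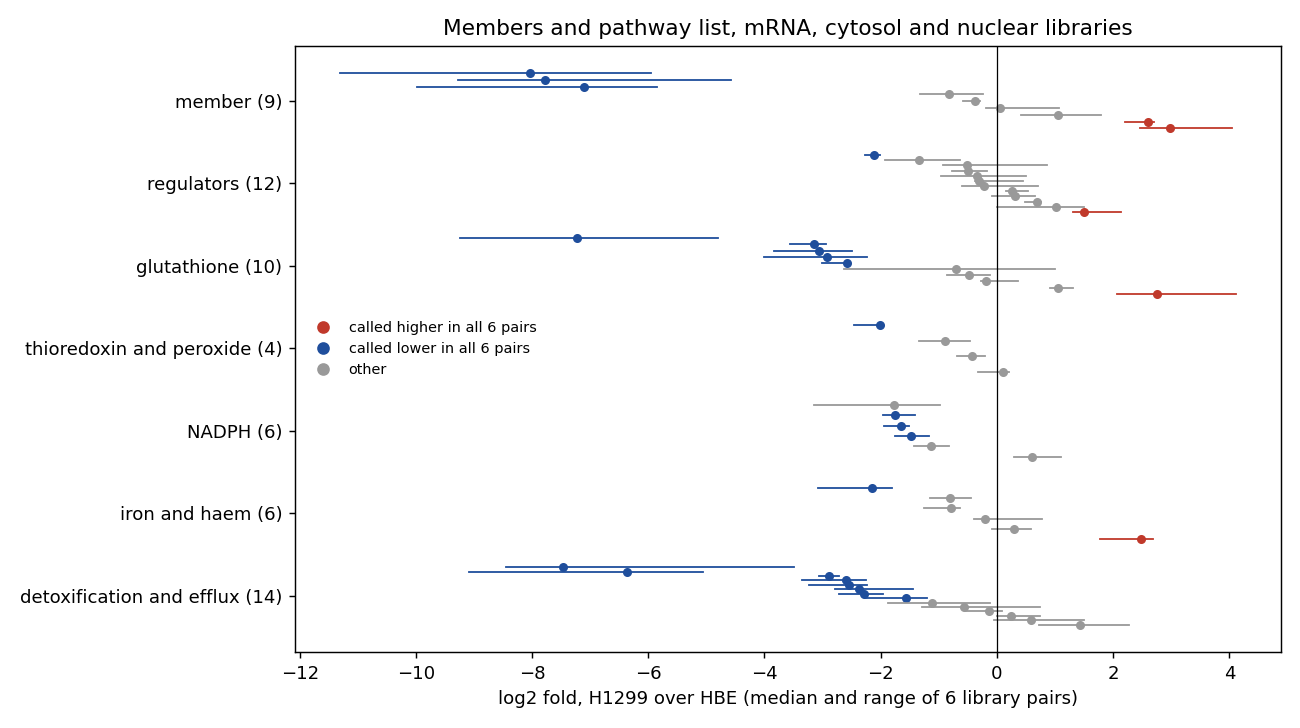
Median (point) and range (line) over the 6 line pairs outside RNC of the log2 fold, H1299 over HBE, for the 9 members and the listed pathway genes kept in all 6 pairs, grouped by function with their number in parentheses. Blue genes, called lower in all 6, outnumber red ones, called higher in all 6, in the list by 19 to 3.

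Changing FLII did not bring any single member with enough reads past the threshold outside RNC. In H1299 the AKR1C genes were under the read minimum, but for AKR1C2 in nuclear RNA, and were not tested. In mRNA, cytosol and nuclear RNA, 0 members were called in any of the 6 FLII pairs. Of all genes, 0.798%, 2.68% and 0.599% were called in the mRNA, cytosol and nuclear pairs of H1299 and 4.95%, 1.25% and 0.873% in those of HBE, beside 6, 6 and 7 members tested in H1299 and 9 in each HBE pair. With no minimum on reads, AKR1C2 and AKR1C3 were called higher in H1299 FLII overexpression cytosol and AKR1C3 in its nuclear RNA.

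HBE mRNA held the largest shifts among the members outside RNC that passed the read minimum, all under a fold of 2 but for the upper bound of HMOX1. GCLM had 20.9 RPKM in FLII knockdown and 13.6 in NC, a log2 fold of 0.49 (0.29 to 0.69). NQO1 had 102 RPKM in knockdown and 73.0 in NC, a log2 fold of 0.35 (0.25 to 0.44), and TXNRD1 gave 0.23 (0.06 to 0.40). HMOX1 gave 0.71 (-0.03 to 1.50) on 41 reads in knockdown and 25 in NC, and OSGIN1 gave 0.46 (-0.0025 to 0.94) on 92 and 67 reads. The intervals of GCLM, NQO1 and TXNRD1 lay above 0, and those of HMOX1 and OSGIN1 reached 0.

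The AKR1C genes lay on the other side in the same pair. AKR1C1 had 112 RPKM in knockdown and 143 in NC, a log2 fold of -0.48 (-0.59 to -0.37), AKR1C2 gave -0.22 (-0.31 to -0.14) and AKR1C3 gave -0.31 (-0.50 to -0.12). Their summed reads gave -0.32 (-0.39 to -0.26) in mRNA, -0.19 (-0.31 to -0.08) in cytosol and -0.21 (-0.30 to -0.12) in nuclear RNA. Thus 3 members lay above 0 and 3 below with intervals off 0. The share of all genes with an interval off 0 is not given here, so this count has nothing to be set against. The median over the 9 was 0.23, beside 0.01 for all genes. In cytosol and nuclear RNA the medians over the members were -0.02 and -0.09, and OSGIN1 at 0.48 (0.04 to 0.93) in cytosol was the widest shift. These intervals leave out the variation between cultures, which 1 library per group cannot show. Line markers also differed in this mRNA pair: the 4 mesenchymal markers summed to 850 CPM in knockdown and 44.8 in NC, mostly FN1 at 806 and 31.8 CPM, and the basal factor TP63 had 83.4 CPM in knockdown and 143 in NC. The 8 epithelial markers summed to 8080 and 6700 CPM. Their part in the members' values was not tested.

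In H1299, FLII overexpression over vector gave member folds of -0.05 to 0.25 in mRNA, -0.42 to -0.07 in cytosol and -0.33 to 0.06 in nuclear RNA for the 6 members with ample reads. SRXN1 was off 0 in mRNA, at 0.25 (0.09 to 0.40), and in nuclear RNA, at -0.33 (-0.59 to -0.07), in opposite directions. TXNRD1 was off 0 in cytosol, at -0.42 (-0.67 to -0.17), and so was NQO1, at -0.13 (-0.23 to -0.03). No member had its interval off 0 on the same side in more than 1 of these H1299 pairs.

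The summed AKR1C reads in H1299 cytosol were 28 in FLII overexpression and 2 in vector, and the interval of their ratio ran over log2 values of 2.46 to 7.57. By the rule used for single genes this sum was called higher, though none of the AKR1C genes alone reached 20 reads in that pair. In mRNA the sums were 8 and 12, and in nuclear RNA 29 and 20, with intervals that include 0. The same FLII overexpression cytosol library held 145 reads of KRT5 and 448 of KRT17, the basal keratins of HBE, against 10 and 43 in vector. Their part in the AKR1C reads was not tested.

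**Figure D4:**
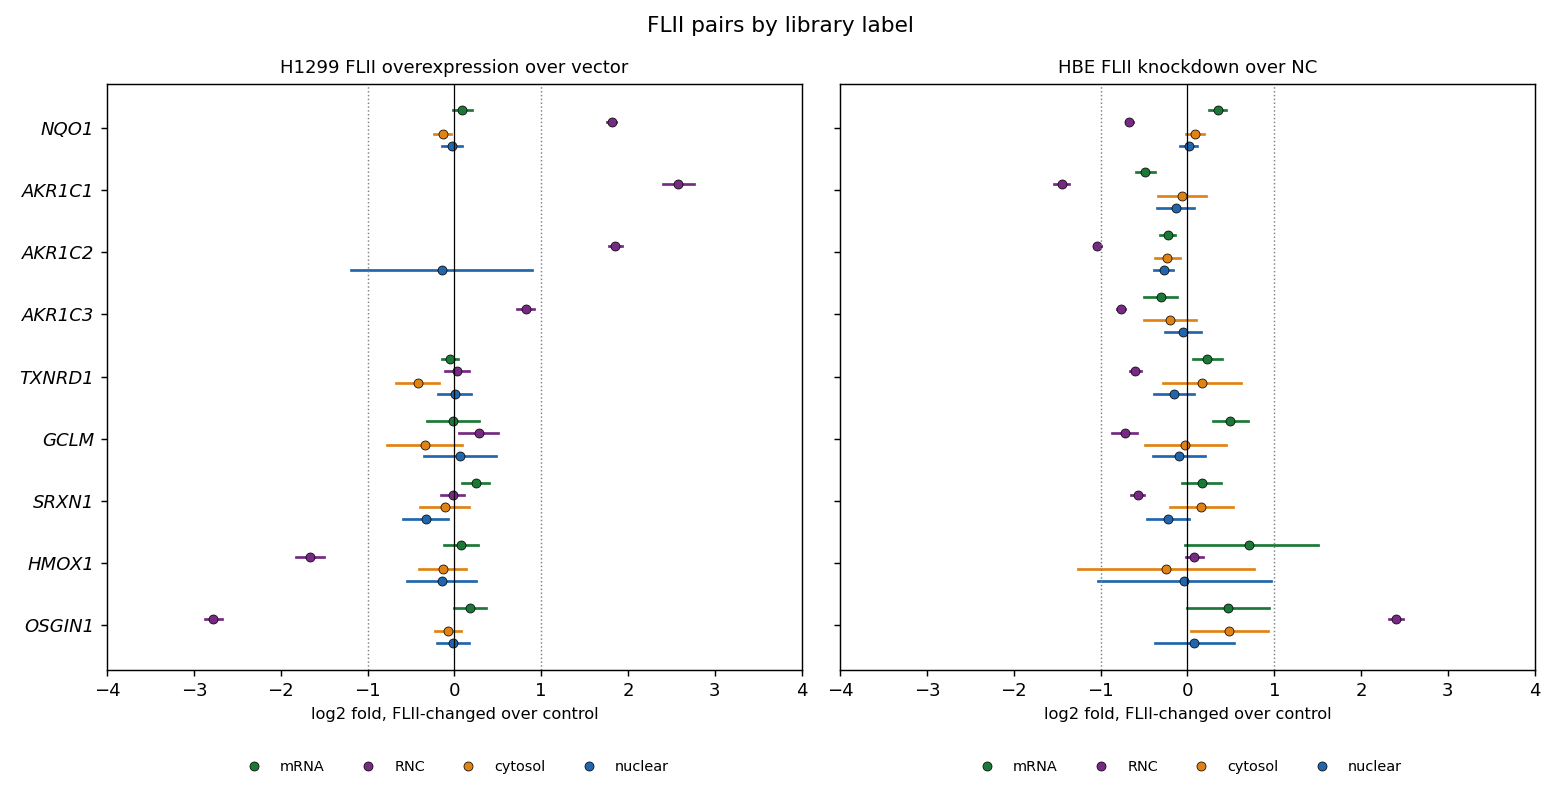
Log2 fold of each gene for H1299 FLII overexpression over vector (left) and HBE FLII knockdown over NC (right), with 95% counting intervals and dotted lines at a fold of 2; genes under 20 reads in a pair are left out. Outside RNC all points lie within the dotted lines, the widest being HMOX1 at 0.71 in HBE mRNA.

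Of the pathway list, none was called in H1299 mRNA or nuclear RNA or in HBE cytosol or nuclear RNA. In HBE FLII knockdown mRNA, SLC7A11, which imports cystine for glutathione, and ABCG2, a drug efflux pump, were called higher (1.05 and 1.17). GGT1, which degrades extracellular glutathione, and CBR1, a carbonyl reductase, were called lower (-1.80 and -1.02). In H1299 FLII overexpression cytosol, BACH1 and GSTA4 were called lower (-1.06 and -1.40), on 17 and 16 reads in FLII overexpression and 56 and 67 in vector. NFE2L2 and KEAP1 were not called in any of the 6, and NFE2L2 in that same cytosol pair gave -0.91 (-1.42 to -0.43) on 48 reads in FLII overexpression and 141 in vector.

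Nuclear over cytosol RNA compares 2 libraries that are of the same cells by label and are not shown to share a culture. HMOX1 was called lower in nuclear RNA in both H1299 groups, at -1.38 (-1.75 to -1.03) in FLII overexpression and -1.26 (-1.59 to -0.95) in vector, where 36.2% and 27.5% of all genes were called. OSGIN1 was called lower in HBE FLII knockdown, at -1.15 (-1.57 to -0.75), and TXNRD1 higher in HBE NC, at 1.21 (0.85 to 1.59), beside 41.5% and 39.8% of all genes. OSGIN1 was negative in all 4 groups (-1.15 to -0.75) and so was NQO1 (-0.72 to -0.54), while TXNRD1 was positive in all 4 (0.28 to 1.21). With libraries scaled to total counts, where the median of all genes was 0.32 to 0.73, HMOX1 and OSGIN1 were no longer called and TXNRD1 was called higher in 3 of the 4 groups instead of 1. Scaling shifts all folds of a pair alike, so the order of the members with ample reads cannot change with it. Among those members, HMOX1 or OSGIN1 was lowest and TXNRD1 highest in each of the 4 groups.

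For some members, picked out after their values were seen, mRNA RPKM was at least 2 times that of both separated fractions. In H1299 these were TXNRD1, SRXN1 and HMOX1 in FLII overexpression and TXNRD1 and SRXN1 in vector, of 7 members compared. In HBE they were AKR1C1, TXNRD1 and GCLM in FLII knockdown and AKR1C1 in NC, of 9 members. The share of all genes with such levels is not given here. TXNRD1 had 60.96 RPKM in the mRNA of H1299 FLII overexpression, with 7.41 in cytosol and 16.4 in nuclear RNA. AKR1C1 had 143 RPKM in the mRNA of HBE NC, with 27.0 and 35.8.

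In RNC the members' differences between the labelled lines were unlike those in the other RNA kinds. The library labelled H1299 vector held 309 AKR1C1, 1782 AKR1C2 and 1248 AKR1C3 reads and the library labelled H1299 FLII overexpression held 2197, 7659 and 2626, although the other 6 H1299 libraries had 0 to 18 reads of any of them. The libraries labelled HBE FLII knockdown and HBE NC held 1304 and 5825 reads of AKR1C1, 7586 and 25499 of AKR1C2, and 5421 and 15047 of AKR1C3. In RPKM the trio summed to 152 and 46.2 under the H1299 labels (FLII overexpression and vector) and to 280 and 689 under the HBE labels (knockdown and NC).

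The make-up of the trio also differed in RNC. AKR1C3 took 36.6% and 58.7% of the summed RPKM in the RNC libraries labelled H1299 FLII overexpression and vector, and 59.2% and 52.1% in those labelled HBE FLII knockdown and NC. In the mRNA of HBE knockdown and NC cells it took 20.0% and 19.1%, and in their cytosol and nuclear RNA 29.1% to 34.5%. The libraries labelled H1299 vector and HBE FLII knockdown had nearly the same make-up, with AKR1C1 at 12.9% and 12.6% and AKR1C2 at 28.4% and 28.1%. The RNC shares rest on at least 309 reads per gene and those of HBE cytosol and nuclear RNA on at least 192, and the split between AKR1C1 and AKR1C2 keeps the uncertainty of their shared sequence.

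**Figure D5:**
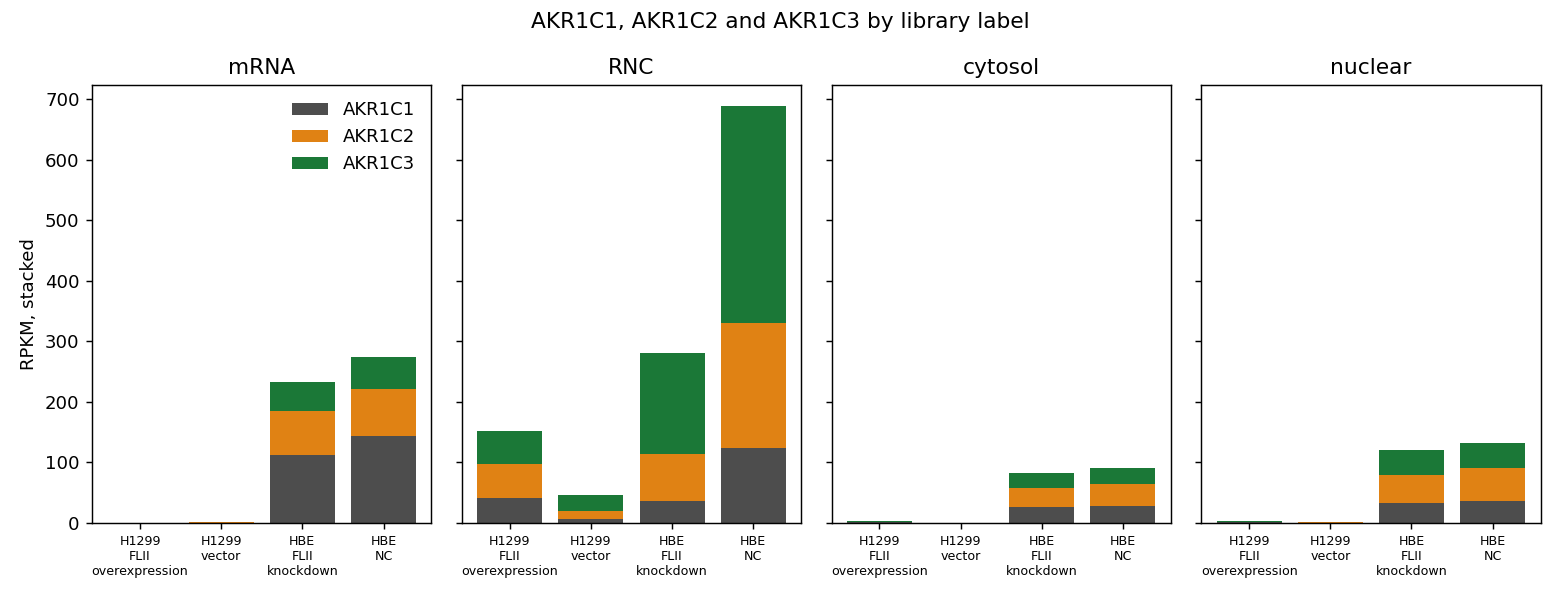
RPKM of AKR1C1, AKR1C2 and AKR1C3 stacked for each library, by RNA kind and label. Outside RNC the H1299 bars are at most 2.31 RPKM in sum, while in RNC the bars labelled H1299 reach 152 and 46.2.

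By label, RNC of H1299 FLII overexpression over vector gave 3 members called higher (NQO1 at 1.81, AKR1C1 at 2.58 and AKR1C2 at 1.85) and 2 lower (HMOX1 at -1.66 and OSGIN1 at -2.78), beside 49.1% of all genes called. HBE FLII knockdown over NC gave 1 higher (OSGIN1 at 2.40) and 2 lower (AKR1C1 at -1.45 and AKR1C2 at -1.04), beside 30.6%. OSGIN1 had 14.0 RPKM under the H1299 FLII overexpression label and 82.6 under the vector label, and 93.4 under the HBE knockdown label and 22.5 under NC. It was thus high in the libraries labelled H1299 vector and HBE FLII knockdown, and those 2 libraries also hold next to no KRT5 (0 and 1 reads), against 9515 under the H1299 FLII overexpression label and 7165 under HBE NC. VIM, abundant in the other H1299 libraries at 8888 reads or more and at most 49 in the other HBE ones, was present in all 4 RNC libraries with 2128 to 14888 reads. The RNC libraries hold more reads in all. In CPM, the 4 mesenchymal markers summed to 108 and 192 under the H1299 labels (FLII overexpression and vector). They summed to 538 and 916 under the HBE labels (knockdown and NC), and to 1430 to 6410 in the other H1299 libraries. The part of these differences in the members' values was not tested.

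Of 59 genes of the pathway list in the same RNC pairs, 27 were called higher and 7 lower under the H1299 labels. The 49.1% of all genes called there were 3696 higher and 3263 lower. Under the HBE labels 7 of the list were called higher and 15 lower, beside 30.6% of all genes (2775 higher and 1722 lower). With total counts 4 of the list were higher and 31 lower, beside 2042 higher and 3368 lower of all genes. The widest by the interval bound nearest 0 were GSTM4 and GPX2, higher in RNC labelled H1299 FLII overexpression than in that labelled vector, and GSTM3, which was lower there and higher in RNC labelled HBE FLII knockdown than in NC. GPX2 had 93.7 RPKM under the H1299 FLII overexpression label and 4.97 under vector, and 28.0 under the HBE knockdown label and 115 under NC.

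Between the lines by label, RNC of H1299 vector over HBE NC gave 1 member higher (OSGIN1 at 2.86) and 7 lower, beside 25.6% and 32.8% of all genes. TXNRD1 gave -2.44, NQO1 -1.29 and SRXN1 -1.60 there, and HMOX1 gave -0.05 (-0.15 to 0.06). RNC of H1299 FLII overexpression over HBE FLII knockdown gave 1 higher (NQO1 at 1.37) and 3 lower (TXNRD1, HMOX1 and OSGIN1), beside 26.5% and 25.9%. With total counts, and with RPKM, that pair had 0 higher and 5 lower. OSGIN1 therefore had opposite directions in these 2 pairs, and the summed AKR1C reads gave -2.95 (-3.00 to -2.90) in the control pair and -0.13 (-0.17 to -0.10) in the other.

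RNC over mRNA within HBE NC gave 7 of 9 members called higher and 0 lower. Of 14099 genes kept, 3495 were called higher and 2393 lower, 41.8% in either direction. HMOX1 was the widest at 5.29 (4.74 to 5.94), with 39.4 RPKM in RNC and 1.90 in mRNA. AKR1C3 followed at 3.71 (3.58 to 3.83) and OSGIN1 at 3.36 (3.01 to 3.74), and AKR1C1 and GCLM were not called, at 0.72 and 0.93. The median over the members was 2.60, beside 0.05 for all genes. The line markers differed between these libraries as well. VIM had 435 CPM in RNC and 5.92 in mRNA, and ZEB1 had 129 reads and 0. Of the epithelial markers, CDH1 had 11.8 CPM in RNC and 241 in mRNA, EPCAM 16.5 and 196, and TP63 6.89 and 143. KRT5, KRT17 and KRT19 were also lower in RNC, at 209 and 637, 913 and 3316, and 227 and 327 CPM. KRT8 and KRT18 were higher in RNC, at 1806 and 1105 and at 1454 and 733 CPM. In sum, the 4 mesenchymal markers had 916 CPM in RNC and 44.8 in mRNA and the 8 epithelial ones 4640 and 6700. Their part in the members' values was not tested. HBE FLII knockdown gave the same 7 called higher, beside 59.6% of all genes called (4567 higher and 3867 lower). With total counts, however, 3 stayed called higher (AKR1C3, HMOX1 and OSGIN1) and 2 were called lower. NQO1 turned to -0.31 there, so its direction depends on the scaling. In this group KRT17 had 48 reads in RNC and 32693 in mRNA, and the part of such differences was not tested.

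In H1299, TXNRD1 was called lower in RNC than in mRNA in both groups, at -1.67 (-1.79 to -1.56) in FLII overexpression and -1.62 (-1.75 to -1.49) in vector. The AKR1C genes and NQO1 were called higher in both. That made 4 of 9 higher and 1 lower in FLII overexpression, beside 69.8% of all genes called (4914 higher and 5021 lower). With HMOX1 and OSGIN1 there were 6 higher and 1 lower in vector, beside 64.3% (4448 higher and 4312 lower). The markers differed between these libraries too. KRT17 had 153930 reads in RNC and 53 in mRNA under the FLII overexpression label, and 18 and 128 under vector. FLII had 941 and 22740, and 14625 and 3705. The 4 mesenchymal markers summed to 108 and 5880 CPM under the FLII overexpression label and to 192 and 6410 under vector. Their part in the members' values was not tested. With total counts, 5 members were called lower in each of these groups, NQO1 and HMOX1 turned to -1.05 and -1.0008 in vector, and the AKR1C genes kept their direction. AKR1B10, an aldo-keto reductase of the pathway list named here after its values were seen, stood out in the same way: it had 39.7 and 34.8 RPKM in RNC labelled H1299 (FLII overexpression and vector) and 216 and 402 in RNC labelled HBE (knockdown and NC), and at most 5.77 in the other 12 libraries.

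The genes whose pattern over the 12 libraries outside RNC was most like that of each member were found among 11833 genes by the root mean square difference of centred log2 CPM. These values share libraries and depth and carry no test. For NQO1 the nearest were SYS1 and C10orf76, both at 0.13, where the median over all genes was 0.98. For AKR1C1 they were TFAP2C at 0.63 and FAM83A at 0.64, where the median was 4.31, and for AKR1C3 PVRL4 at 0.67 and AKR1C2 at 0.72. AKR1C1 had 0 to 4 and AKR1C3 0 to 9 reads in the H1299 libraries outside RNC. Their likeness thus rests in part on counts near 0 in that line, and HBE libraries alone could meet the read minimum. For HMOX1 they were PFN2 at 0.31 and NUMBL at 0.36, and for OSGIN1 LOC100506190 at 0.22 and C19orf40 at 0.24. Apart from AKR1C2, none of these neighbours is in the member or pathway lists.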

How the data were processed

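PolyA RNA of 16 libraries was sequenced, 1 per group, and each library's title gave its group. The deposited tables list, per the file headers, a transcript length, a read count and an RPKM value beside every gene. The authors' counts are whole numbers, not normalized. The deposited RPKM were made by the authors from count, length and library total. The submitters' processing notes name GRCh37 and hg19. Aligner, counting tool, strand setting and the method that separated cytosol from nuclear RNA: not given in the sources used here. No coordinates of that build are printed.

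For each of 24 pairs of libraries, TMM factors (edgeR 4.0.16, R 4.3.3) were computed over the whole table, 0.5 reads were added, and a gene needed 20 reads, both libraries together. The log2 fold has an exact conditional binomial (Clopper-Pearson) 95% interval (scipy 1.17.1). With 1 library per group there is no test and no p-value. Counts do not show PCR duplicates, so these intervals, and the floor of 3 counts used against a library at 0, hold for counting error only.

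The members and the pathway and marker lists were chosen with earlier results of these data known. Of the pathway list the text names NFE2L2, KEAP1, BACH1, MAFF, MAFG, MAFK, CUL3 and SQSTM1, and in each comparison family up to 6 genes per direction, by the number of pairs called alike and then the bound nearest 0. For likeness, genes needed 20 reads in at least 6 libraries, and the 2 nearest are given for the members the results turn on. Other settings tried were scaling by total counts, DESeq2 1.42.0 size factors (median of ratios), a minimum of 1 read, a minimum of 100 reads, 5 added reads, the deposited RPKM plus 1 for genes that reach 1 RPKM, and summed AKR1C reads. Promoter windows are RefSeq's and the transcripts behind the shared stretches GENCODE's.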

Additional observations from a re-analysis of the deposited data

Results flagged for a closer look

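In 4 cases a member was called in one direction between the lines in mRNA, cytosol or nuclear RNA and in the other in RNC, by library label. The difference between the RNA kinds was not tested in any of them. TXNRD1 of H1299 vector over HBE NC was called higher in mRNA and cytosol and lower in RNC, with a log2 fold of -2.44 in RNC. TXNRD1 of H1299 FLII overexpression over HBE FLII knockdown was called higher in mRNA and lower in RNC, at -1.63. HMOX1 of the same pair was called higher in mRNA, cytosol and nuclear RNA and lower in RNC, at -1.61. OSGIN1 of that pair was called higher in the same 3 and lower in RNC, at -2.14. Among the RNC libraries FLII goes against the labels in H1299, KRT5 and KRT17 are high under the H1299 FLII overexpression label and near 0 under the HBE FLII knockdown label, and VIM is present under both HBE labels; their part was not tested.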

How the results depend on the processing

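No paired analysis was possible because each group has 1 library and the labels carry no replicate numbers; for the same reason no library could be left out in turn. Of 480 counts of calls under 6 other settings 433 stayed within 1.5 times, among them all counts of members in the line pairs outside RNC. Of 1268 member folds 984 moved less than their interval, 278 moved more and 6 reversed, and why was not tested except where stated. Total counts moved the median log2 fold of all genes to between -2.27 and -0.88 in RNC over mRNA, to -1.22 and -0.65 in RNC between lines, to 0.11 to 0.60 in the other line pairs and to 0.32 to 0.73 in nuclear over cytosol. The share of calls that were higher was then 11.5% to 23.8% for RNC over mRNA (49.5% to 59.4% with TMM), 80.8% to 88.3% for nuclear over cytosol (49.4% to 57.5%), 55.3% to 71.7% for the line pairs outside RNC (48.7% to 54.6%), 18.9% and 30.1% for RNC between lines (43.9% and 50.7%), 37.7% for HBE RNC of knockdown over NC (61.7%) and 57.9% for HBE mRNA of knockdown over NC (40.8%).

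RNC over mRNA reversed for NQO1 (-1.05 with total counts and -1.03 with RPKM) and HMOX1 (-1.0008 and -0.97) with the H1299 vector label, and in HBE FLII knockdown for NQO1 (-0.31 with both). Members called lower became 5 with total counts and 5 with RPKM in H1299 FLII overexpression (1 with TMM), 5 and 4 for vector cells (1), and 2 each in HBE FLII knockdown (0), where 3 and 3 stayed called higher (7). In nuclear over cytosol, total counts and RPKM both gave 1 called higher (0) and 0 lower (1) in H1299 FLII overexpression and in HBE FLII knockdown, and 0 lower (1) in H1299 vector, where no read minimum gave 1 higher (0); median of ratios gave 1 lower (0) in HBE NC. In the FLII pairs with no read minimum, members called higher were 2 in H1299 cytosol and 1 in H1299 nuclear RNA, and 1 in cytosol with RPKM (0 each). In HBE RNC, members called lower were 5 with total counts, 1 with median of ratios and 4 with RPKM (2). In RNC of H1299 FLII overexpression over HBE FLII knockdown both total counts and RPKM gave 0 higher (1) and 5 lower (3).

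Of the pathway list, RPKM gave 4 lower in H1299 RNC (7). In H1299 cytosol 1 was higher with no read minimum (0), and 0, 1 and 1 were lower with at least 100 reads, 5 reads added and RPKM (2). In HBE mRNA RPKM gave 1 higher (2), and total counts and RPKM 1 lower each (2). In HBE RNC total counts and RPKM gave 4 and 3 higher (7) and 31 and 23 lower (15). RNC of H1299 vector over HBE NC gave 5 and 2 higher (8), cytosol of that pair 13 higher with total counts and 5 with at least 100 reads (8), and RNC of the other line pair 23 lower with total counts (15).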
